A study of Homo sapiens with 12 samples.

Results

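DHRS2 and 6 related dehydrogenases of steroids and retinoids, namely DHRS3, DHRS7, DHRS9, RDH10, HSD11B1 and HSD11B2, were followed in human proximal tubular cells (HPTC) exposed to a cytokine or to an inhibitor of glucose transport. The members were taken by their gene names in the array files, where each of the 7 genes had 1 probe, out of 34127 probes with 25992 gene names. DHRS2 was chosen by its measured rise with empagliflozin over the control of the same slide, so its Empa values are given below as a description without a test. Total RNA was measured on 12 single-color Agilent arrays, 2 for each of 6 groups: HK-2 cells and RPTEC/TERT1 cells, each without a ligand (control), with IL-1β (10 ng/mL) or with empagliflozin (Empa, 500 nM) for 24 h. All groups, the controls included, had been cultured under normal glucose and deprived of serum and supplements for 24 h before stimulation, and no array carried cells that received both ligands. HK-2 is a kidney tubular line immortalized with papillomavirus genes, and RPTEC/TERT1 is a renal proximal tubular line immortalized with telomerase, whose growth medium, unlike that of HK-2, contained hydrocortisone. The cytokine IL-1β drives inflammation, and Empa blocks the sodium-glucose cotransporter SGLT2, the product of SLC5A2. The 3 treatments of one replicate of a line were hybridized side by side on 1 slide, and the 4 slides are called here HK-2 slide 1 and 2 and RPTEC/TERT1 slide 1 and 2. On every slide control was at position 1, IL-1β at position 2 and Empa at position 3, so treatment and position cannot be told apart. The duplicates were biological, and their number limits the precision.

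These enzymes belong to the short-chain dehydrogenases/reductases, which move hydride between a cofactor and an alcohol or carbonyl group of a small lipid. RDH10 oxidizes retinol to retinaldehyde, the precursor of retinoic acid, and DHRS3 runs the reaction backwards and so limits retinoic acid formation. HSD11B1 regenerates active cortisol from cortisone, whereas HSD11B2 inactivates cortisol and thereby shields the mineralocorticoid receptor in the aldosterone-responsive distal nephron.

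The table of RefSeq gene starts (GRCh38.p14) listed 1 start each for DHRS2 and HSD11B1. The 250 bases before these starts are shown because DHRS2 was the member chosen for its rise with Empa and HSD11B1 the member that was measurable with IL-1β alone. In them 6 motifs were searched on both strands, and matches are in capitals. The motifs were the TATA box TATAAA, the CAAT box in the form CCAAT, the GC box GGGCGG, the AP-1 motif TGANTCA, the nuclear receptor half-site AGGTCA, and the NF-kB motif.
DHRS2, chr14:23629865-23630114, plus strand: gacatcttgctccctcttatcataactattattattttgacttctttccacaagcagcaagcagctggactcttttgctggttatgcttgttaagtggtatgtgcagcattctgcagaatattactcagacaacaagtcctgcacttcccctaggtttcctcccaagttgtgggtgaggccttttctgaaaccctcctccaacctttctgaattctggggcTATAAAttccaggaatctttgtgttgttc
HSD11B1, chr1:209685929-209686178, plus strand: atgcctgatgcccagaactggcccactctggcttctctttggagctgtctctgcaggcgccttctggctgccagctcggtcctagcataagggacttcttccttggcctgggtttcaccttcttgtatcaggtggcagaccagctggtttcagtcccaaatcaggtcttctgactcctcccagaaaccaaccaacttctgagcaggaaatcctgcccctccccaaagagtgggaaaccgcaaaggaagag
The DHRS2 stretch held TATAAA from 29 to 24 bases before the start, a motif that 10.7% of the 35116 stretches of this length in the table held at any position on either strand. The other 5 motifs had no match in it, and none of the 6 matched in the HSD11B1 stretch, while 5.21% of all stretches held the NF-kB motif. DHRS3 has 3 listed starts and DHRS9 has 4. No start was listed for DHRS7, RDH10 and HSD11B2. On hg19, the build of the array annotation, the DHRS2 probe lay on chromosome 14 from 24114500 to 24114560.

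The titles of the samples give the line of an array, whereas their source field gives HK-2 for each of the 12, and the arrays do not group by the titles. Over the 15324 probes marked well above background on every array, the controls of HK-2 slide 1 and RPTEC/TERT1 slide 2 correlated with r = 0.984 and those of RPTEC/TERT1 slide 1 and HK-2 slide 2 with r = 0.973, while controls of the same label reached 0.880 and 0.875. These values are across probes, which share their arrays. Results are therefore given slide by slide, each treated array against the control of its own slide, and any statement about a line refers to its label. Of 12 proximal tubule markers, LRP2, AQP1, GGT1, MME, SLC22A8 and SLC5A2 exceeded background clearly on each of the 12 arrays, whereas CUBN, HNF4A and SLC22A6 did so on none. ANPEP, CDH1 and PAX2 were above background on 6 arrays each.

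Signals below are background-subtracted signal units after each array was scaled to a common 75th percentile of 419 units. On a slide, the lowest signal that the scanner software marked as well above background in an array was between 5.14 and 8.67 units before scaling. Where only one of the arrays compared was well above background, the difference is given as a bound. The bound compares the bright signal with the dim one or, if larger, with the lowest signal so marked on the dim array. A probe could exceed that lowest signal and still be unmarked, as TGM2 did at 25.2 units in the control of HK-2 slide 1. The words "at least" are used below in this sense and do not give a strict minimum. The plot of the 7 genes by array shows which signals were well above background.

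**Figure D1:**
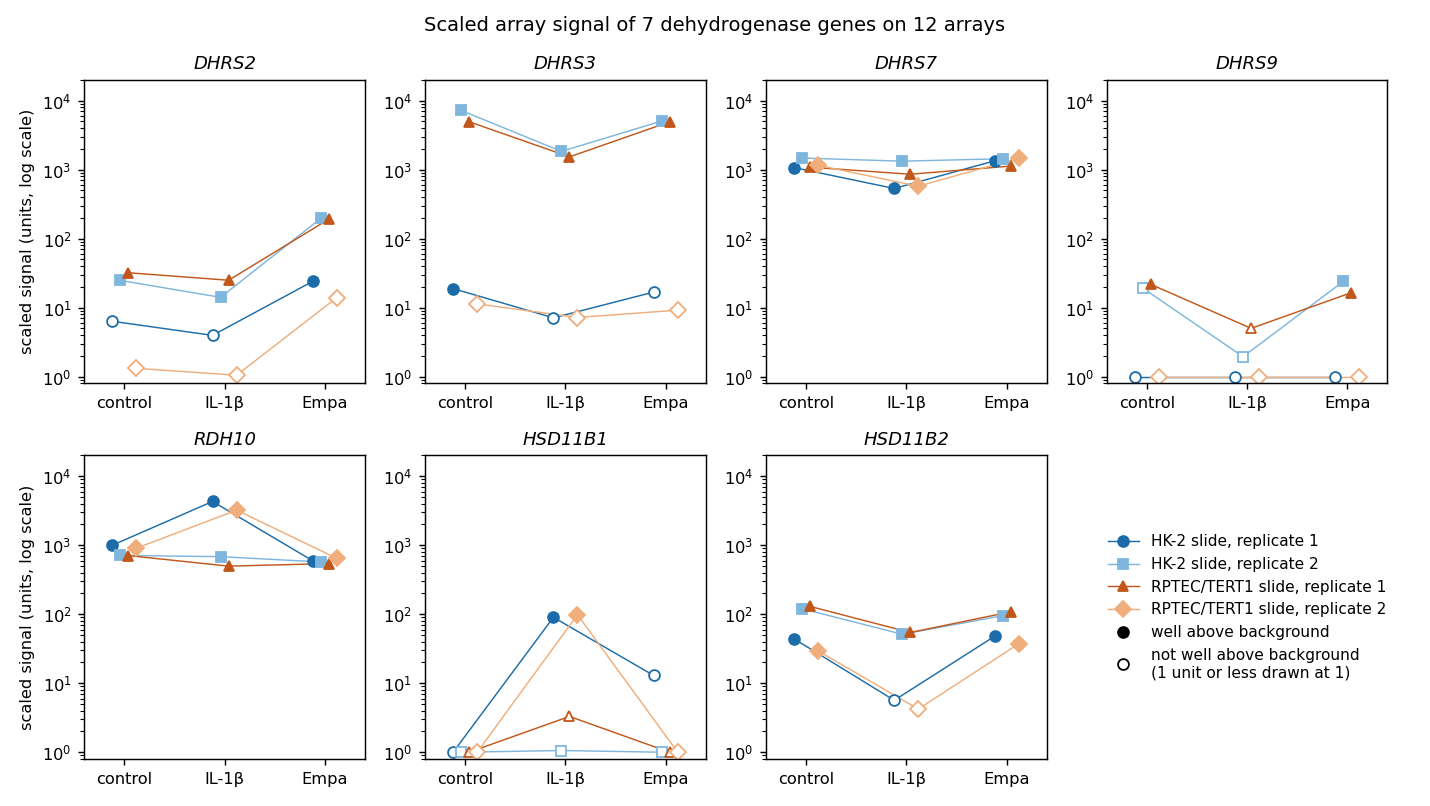
Scaled signal (log axis) of each gene on the 12 arrays, by treatment, with a line joining the 3 arrays of a slide; filled symbols were well above background and open symbols were not, and values of 1 unit or less are drawn at 1. DHRS2 is highest with Empa on each slide, HSD11B1 reaches 90.2 and 98.3 units with IL-1β on 2 slides, and DHRS3 is bright on 2 slides and near background on the others.

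DHRS2, a mitochondrial and nuclear reductase of dicarbonyl compounds that was first described in liver cells, gave a higher signal with Empa than in the control of the same slide on 4 of 4 slides, on 2 of which both arrays were well above background. On RPTEC/TERT1 slide 1 the signal was 31.9 units in control, 24.8 with IL-1β and 191 with Empa. On HK-2 slide 2 it was 24.7, 14.1 and 196 units. These 6 arrays were all well above background, and Empa exceeded control 5.99-fold and 7.94-fold. The remaining slides had much lower signals. On HK-2 slide 1 the values were 6.32 units in control, 3.95 with IL-1β and 24.0 with Empa, and only the Empa array was well above background, which gave at least a 3.25-fold higher level. On RPTEC/TERT1 slide 2 the values were 1.31, 1.05 and 13.96 units, none of them well above background. Hence the 4 Empa arrays overlapped with the 4 control arrays when slides were ignored. Within a slide there is 1 array of each, so the higher Empa signal there only restates what DHRS2 was chosen by. Of all genes in the fit, 12.5% were higher with Empa on all 4 slides.

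The measured log2 difference between Empa and control was 2.58 on RPTEC/TERT1 slide 1 and 2.99 on HK-2 slide 2. The mean over all 4 slides was 2.73 (SE 0.24), but it includes 1.93 from HK-2 slide 1 and 3.41 from RPTEC/TERT1 slide 2, which rest on signals not well above background and are not measured differences. The fit held 15717 genes, with 1 probe a gene, for which a group was needed with all of its arrays well above background. DHRS2 entered only through the HK-2 Empa arrays, where it was high. The size depended on the handling of background. With normexp background correction and quantile normalization the log2 differences were 0.28 on HK-2 slide 1, 1.41 on RPTEC/TERT1 slide 1, 0.29 on RPTEC/TERT1 slide 2 and 1.58 on HK-2 slide 2, and in the log2 table of the authors they were 0.06, 1.45, 0.22 and 2.02. On the slides near background the size was thus small under both alternatives. With normexp an offset of 50 units was added to each signal, which by itself shrinks differences between dim signals. The small sizes therefore do not show that the change on these slides was small. In RNA of a whole culture, fewer cells with a transcript and less transcript per cell cannot be told apart.

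With IL-1β, DHRS2 was lower than control on 4 of 4 slides, by a mean log2 difference of -0.55 (SE 0.24, 95% interval -1.09 to 0.0048, limma adjusted p = 0.181), and did not pass the threshold. Only the pair of slides with measured levels bears on this, where IL-1β was 0.779-fold and 0.569-fold of control. On these slides Empa was highest and IL-1β lowest.

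**Figure D2:**
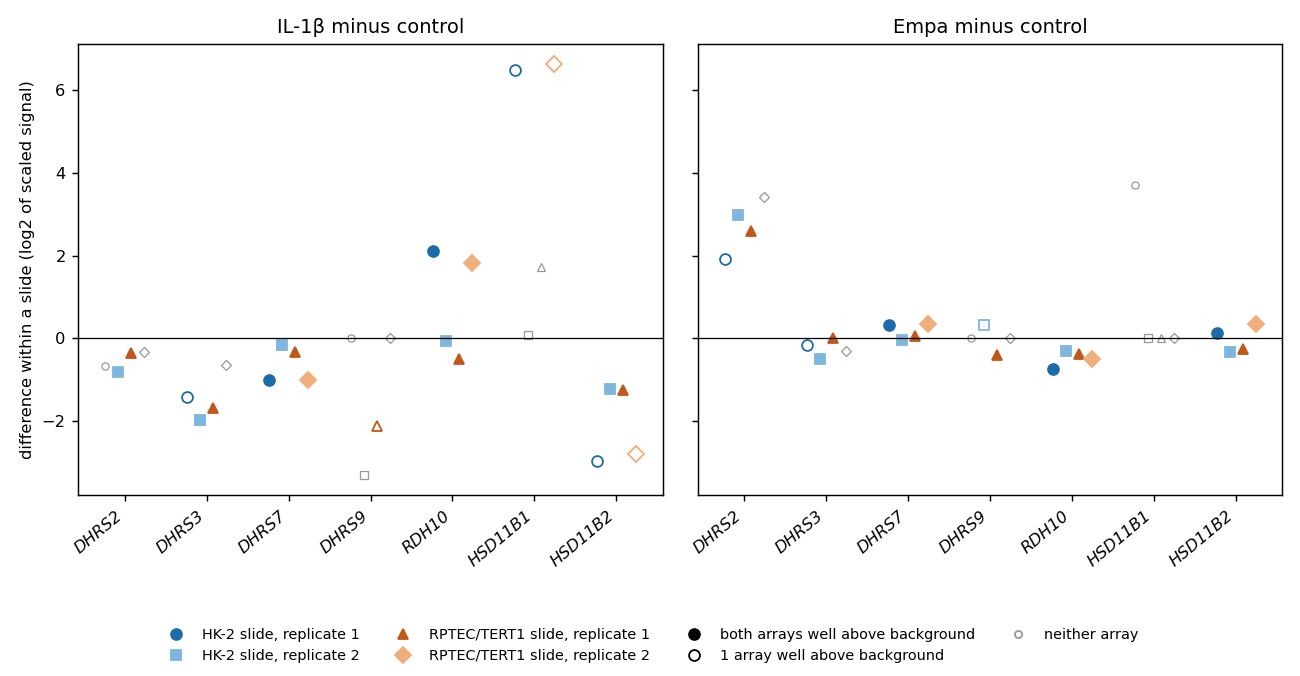
Log2 difference of scaled signal between the treated and the control array of a slide, for IL-1β (left) and Empa (right); each symbol is 1 slide, filled where both arrays were well above background, open where 1 was, and small and grey where neither was. Under Empa the filled DHRS2 symbols lie at 2.58 and 2.99, and under IL-1β HSD11B2 lies between -2.96 and -1.23, while RDH10 lies at 2.11 and 1.83 on 2 slides and at -0.06 and -0.51 on the others.

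Among the retinoid enzymes, DHRS3, the retinaldehyde reductase whose own gene is a target of retinoic acid, fell with IL-1β. Its signal on RPTEC/TERT1 slide 1 was 4919 units in control, 1524 with IL-1β and 4907 with Empa. On HK-2 slide 2 it was 7182, 1830 and 5040 units. IL-1β thus left 0.310-fold and 0.255-fold of the control signal on these slides. On HK-2 slide 1 the signal was 18.8 units in control, 7.09 with IL-1β and 16.7 with Empa, with control alone well above background, a level at least 2.41-fold lower with IL-1β. None of the values on RPTEC/TERT1 slide 2, 11.3, 7.17 and 9.16 units, was well above background. The gene was therefore bright on 2 slides and at or near background on the others, and it was lower with IL-1β than in control on each. DHRS3 entered the fit through the HK-2 control arrays alone, where it was high, so its call against control depends in part on that filter. The mean log2 difference was -1.43 (SE 0.23, n = 4 slides), with a limma adjusted p of 0.0208 when no filter on dim probes was used and 0.00577 with the filter. The call was lost with normexp (-0.998, adjusted p = 0.0920) and in the authors' table (-0.98, adjusted p = 0.0988), where the dim slides contribute differences between -0.19 and -0.04. With normexp the added offset by itself shrinks the differences of these dim slides.

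RDH10, which catalyzes the step that DHRS3 reverses, was well above background on all 12 arrays. With IL-1β its signal went from 999.8 units in control to 4304 on HK-2 slide 1 and from 905 to 3220 on RPTEC/TERT1 slide 2. It was 707.2 in control and 497 with IL-1β on RPTEC/TERT1 slide 1, and 711.3 and 682 on HK-2 slide 2. The IL-1β arrays were thus 4.30-fold and 3.56-fold of control on 2 slides and 0.703-fold and 0.959-fold on the others, and the slides that differ are of both labels. The mean log2 difference of 0.84 (SE 0.48, 95% interval -0.24 to 1.92) did not pass (limma adjusted p = 0.287), and the difference between the labelled lines was -0.36 with an adjusted p of 1. With Empa, RDH10 was lower than control on 4 of 4 slides, at 594, 542, 644 and 572 units on HK-2 slide 1, RPTEC/TERT1 slide 1, RPTEC/TERT1 slide 2 and HK-2 slide 2. The mean of -0.49 (SE 0.48, 95% interval -1.57 to 0.60, limma adjusted p = 0.670) did not pass either, and 13.9% of all genes were lower with Empa on all 4 slides.

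DHRS9, an oxidoreductase of retinol and of steroids, was well above background on 3 of 12 arrays, and it was not among the genes in the fit. On RPTEC/TERT1 slide 1 the signal was 21.6 units in control, 4.99 with IL-1β and 16.4 with Empa, and on HK-2 slide 2 it was 19.1, 1.94 and 24.0 units. It was at or below 0.795 units on the other 6 arrays. The level with IL-1β on RPTEC/TERT1 slide 1 was at least 3.04-fold lower than in control, since IL-1β alone was not well above background there. On HK-2 slide 2 control missed that mark as well. With all probes kept, the mean log2 difference with IL-1β was -1.35 (SE 0.65, limma adjusted p = 0.292).

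DHRS7, a reductase of steroids and retinoids in the endoplasmic reticulum, was well above background on all 12 arrays. In control it measured 1067 units on HK-2 slide 1, 1081 on RPTEC/TERT1 slide 1, 1151 on RPTEC/TERT1 slide 2 and 1467 on HK-2 slide 2. With IL-1β the values in the same order were 531, 854, 572 and 1320 units. All 4 were lower than their controls, by a mean log2 difference of -0.63 (SE 0.23, 95% interval -1.13 to -0.12), which did not pass after adjustment over all genes (limma adjusted p = 0.104). It passed in the authors' table (adjusted p = 0.0424) and without the IL-1β array of HK-2 slide 2 (adjusted p = 0.0474). With Empa the values were 1334, 1121, 1466 and 1433 units, a mean log2 difference of 0.17 (95% interval -0.34 to 0.68, limma adjusted p = 0.7497).

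The pair of enzymes that interconvert cortisol and cortisone moved apart on 2 slides with IL-1β. HSD11B1, which regenerates cortisol, was not well above background on any control or Empa array, with control signals below 0 and the highest Empa signal, 12.9 units, on HK-2 slide 1. With IL-1β it measured 90.2 units on HK-2 slide 1 and 98.3 units on RPTEC/TERT1 slide 2, both well above background, and 3.30 and 1.06 units on RPTEC/TERT1 slide 1 and HK-2 slide 2, both not. The level with IL-1β was at least 12.2-fold higher than control on HK-2 slide 1 and at least 11.7-fold higher on RPTEC/TERT1 slide 2. No array of the remaining slides measured the gene. HSD11B1 was outside the fit, because its 2 bright arrays carry different line labels. With no filter on dim probes the limma adjusted p was 0.156. The slides that showed HSD11B1 with IL-1β were also those on which RDH10 was higher with IL-1β.

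HSD11B2, which inactivates cortisol, fell with IL-1β. The signal on RPTEC/TERT1 slide 1 was 129.8 units in control, 54.4 with IL-1β and 108 with Empa, and on HK-2 slide 2 it was 120.1, 51.2 and 95.2 units. On HK-2 slide 1 it was 44.0, 5.66 and 47.8 units, and on RPTEC/TERT1 slide 2 29.4, 4.22 and 37.2 units. The IL-1β array was the lowest of its slide in every case and was not well above background on the last pair of slides, where the level was at least 5.64-fold and at least 5.17-fold lower than in control. On the former slides IL-1β left 0.419-fold and 0.426-fold. The mean log2 difference was -2.06 (SE 0.39, n = 4 slides, limma adjusted p = 0.0113), and it depended on the handling of background, being -0.53 with normexp and -0.46 in the authors' table, with the call kept under both. The smaller size with normexp follows in part from its added offset. HSD11B2 was in the fit through its control and Empa arrays. The call was lost without the control array of HK-2 slide 1 (-1.94, adjusted p = 0.0519), without HK-2 slide 1 (-1.76, adjusted p = 0.0606) and without RPTEC/TERT1 slide 2 (-1.82, adjusted p = 0.0772). With Empa the mean was -0.04 (95% interval -0.92 to 0.85, limma adjusted p = 0.976).

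Because HSD11B2 is best known from the distal nephron, the markers of that segment were read beside it. Of 4 on the array, AQP2, CALB1 and SLC12A3 were not well above background on any array, and SLC12A1, the cotransporter of the thick ascending limb, was so on all arrays of HK-2 slide 1 and RPTEC/TERT1 slide 2 and on none of the other slides. Their summed signal ranged from 15.1 to 13342 units in control, from 7.71 to 303 units with IL-1β and from 4.31 to 12482.5 units with Empa. Of the leukocyte markers, PTPRC and CD68 were above background on all 12 arrays, CD14 on 11 and CD3E on 2. Their summed signal ranged from 181 to 1083 units in control, from 627 to 957 with IL-1β and from 129 to 879 with Empa. The part of either list in the results was not tested.

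In the fit across 15717 genes, 2 of the 5 members tested passed an adjusted p of 0.05 with IL-1β, DHRS3 and HSD11B2, both lower. Neither had a group of IL-1β arrays above background, and both were in the fit through groups in which they were higher, DHRS3 through control arrays alone, so this count is no support for a fall of the members. Over all genes 12.4% passed, 7.91% lower and 4.52% higher. DHRS2, DHRS3, DHRS7 and HSD11B2 were lower with IL-1β on all 4 slides, as were 24.9% of all genes, and the median log2 difference of all genes was -0.11. With Empa, none of the 4 members other than DHRS2 passed (limma, with 0 also at an unadjusted p under 0.05), and these intervals do not show that Empa leaves them unchanged. The methods' t-test, unpaired and given in the paper for PCR and ELISA, called 0 of all genes in either labelled line. Its 0 for the members follows from that, and no conclusion is drawn from it. Over all genes, 1 of 15717 (0.00636%) passed with Empa, and 12.5% were higher with Empa on all 4 slides. Both shares were taken with DHRS2 among the genes, which was chosen for its rise with Empa, so they are not free of that choice. None of the 5 members passed the test of a difference between the labelled lines in the response to IL-1β (adjusted p of 1 each), nor, DHRS2 aside, in that to Empa. Over all genes, 0 passed this test for either ligand, with 272 and 154 at an unadjusted p under 0.05. Each label joins slides whose arrays correlated better with a slide of the other label. A response that split by those better correlated slides, as that of RDH10 to IL-1β did, could therefore not show in this test, and no conclusion is drawn from it.

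**Figure D3:**
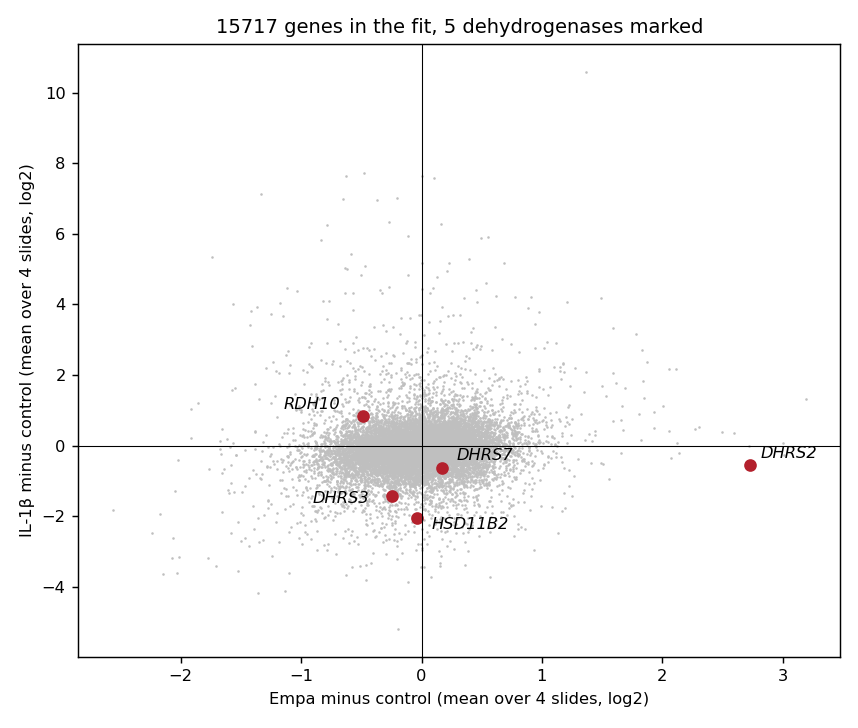
Mean log2 difference over 4 slides with Empa (horizontal) and IL-1β (vertical) for the 15717 genes in the fit (grey), with the 5 dehydrogenases among them in red; both axes use the same 4 control arrays. DHRS2 lies at 2.73 with Empa and -0.55 with IL-1β, and HSD11B2 at -0.04 and -2.06.

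The genes of the surrounding pathways were read from 5 lists, each described by the number of its genes called in either direction, beside the 7.91% of all genes that were called lower with IL-1β and the 4.52% called higher. Of 19 other retinoid and short-chain dehydrogenases tested, 3 fell with IL-1β and none rose. DHRS11, a cytosolic reductase of steroids and diketones, was called with a log2 difference of -1.57 (SE 0.28, limma adjusted p = 0.00855), and its signal went from between 248 and 368 units in the 4 controls to between 66.1 and 161 units. RDH5, the retinol dehydrogenase of the visual cycle, was at -1.11 and the mitochondrial RDH13 at -0.70. RDH5 was in the fit only through the HK-2 Empa arrays. On HK-2 slide 1 and RPTEC/TERT1 slide 2 neither its IL-1β nor its control array was well above background. IL-1β left 0.540-fold of its control signal on RPTEC/TERT1 slide 1 and 0.418-fold on HK-2 slide 2. The median of this list was -0.22, beside -0.11 for all genes. DHRS4, the peroxisomal retinol dehydrogenase and the relative of DHRS2 on the same chromosome, was at -0.16 with IL-1β (limma adjusted p = 0.681) and at -0.22 with Empa (adjusted p = 0.681), and with Empa its differences on single slides lay between -0.94 and 0.25.

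Of 7 genes of retinoid uptake, storage, oxidation and breakdown tested, 2 were called with IL-1β, BCO1, which cleaves beta-carotene to retinaldehyde, at -1.91 and the retinol-binding RBP7 at -0.70. BCO1 was above background in the 4 controls (25.4 to 58.0 units) and on no IL-1β array (7.69 to 15.6 units), at levels at least 2.29-fold to at least 5.10-fold lower on single slides. It was in the fit only through control arrays, where it was high, and its adjusted p with no filter on dim probes was 0.0327 (limma). ALDH1A1, which oxidizes retinaldehyde to retinoic acid, measured 609 and 485 units in the controls of HK-2 slide 1 and RPTEC/TERT1 slide 2, against 123 and 90.3 units with IL-1β. Its control signals on the other slides were 15.99 and 15.7 units, and the mean difference of -1.22 did not pass (limma adjusted p = 0.122). ALDH1A2 and ALDH1A3 were not in the fit. Of 10 retinoic acid receptors and direct targets, TGM2, a crosslinking transglutaminase, rose with IL-1β by 2.404 (SE 0.15, limma adjusted p = 0.000113) and RARRES3, a phospholipase induced by retinoids, was at -1.16 (SE 0.20, adjusted p = 0.00677). TGM2 was 5.597-fold, 4.96-fold and 4.23-fold of control on the 3 slides on which it was measured in both arrays. The medians of the lists were -0.44 and -0.14, against -0.11 over all genes.

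Of 18 hydroxysteroid dehydrogenases and steroid reductases, 4 fell with IL-1β and none rose, with a median of -0.24, where 7.91% of all genes fell with a median of -0.11 over all. They were HSD17B1 (-0.95), which activates estrone, HSD3B7 (-0.84), an enzyme of bile acid synthesis, HSD17B8 (-0.82), which acts in fatty acid synthesis and on estradiol, and SRD5A1 (-0.63), a reductase of testosterone. Of 12 genes of glucocorticoid and mineralocorticoid action, 2 were called higher and 2 lower, with a median of 0.11. SGK1, a kinase induced by both hormones, rose on each slide and went from 1364 to 7456 units on HK-2 slide 1 and from 2987 to 9869 units on RPTEC/TERT1 slide 1, a mean log2 difference of 2.17 (SE 0.20, limma adjusted p = 0.000527). The chaperone FKBP4 was at 0.68. SCNN1A, the alpha subunit of the epithelial sodium channel and a target of the mineralocorticoid receptor, was at -2.80, and went from between 541 and 1114 units in control to between 43.8 and 247 units. The transcription factor ZBTB16 was at -0.91. The glucocorticoid receptor gene NR3C1 was at 0.02 (limma adjusted p = 0.942) and turned to -0.02 with normexp and -0.08 in the authors' table. The mineralocorticoid receptor gene NR3C2 was at 0.26 (limma adjusted p = 0.736), a mean over slides that went in opposite directions. With IL-1β it was 1.97-fold of control on RPTEC/TERT1 slide 1 and 2.10-fold on HK-2 slide 2. It was 0.920-fold on HK-2 slide 1 and 0.543-fold on RPTEC/TERT1 slide 2. H6PD, which supplies the cofactor of HSD11B1, was not in the fit.

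All 15 list genes called with IL-1β kept their direction under 4 other scalings and without any single array or slide, 7 of them kept the call under all 4 scalings, and 3 (TGM2, SGK1 and SCNN1A) kept it without any single slide. With Empa, 0 genes of any list passed (limma). The medians of the lists with Empa were 0.10, -0.39, -0.33, -0.29 and -0.06 in the order given, beside -0.02 for all genes.

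**Figure D4:**
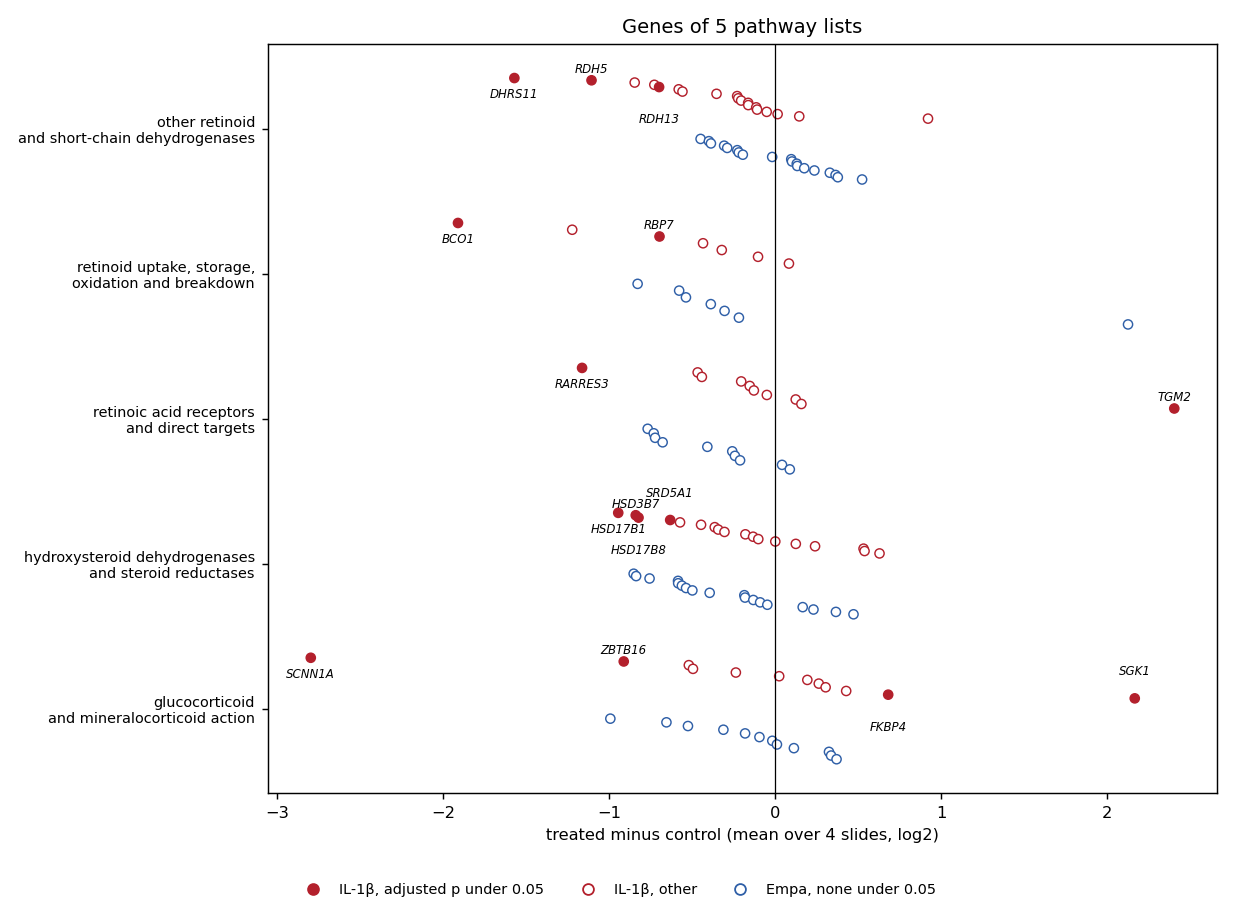
Mean log2 difference over 4 slides of each gene tested in the 5 lists, red for IL-1β and blue for Empa; filled symbols passed a limma adjusted p of 0.05 and are named, and vertical spread within a list has no meaning. The called genes lie to the left of 0 except TGM2 at 2.404, SGK1 at 2.17 and FKBP4 at 0.68.

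The genes most like DHRS2 across the 12 arrays, after the mean of each slide was taken off, were LRRC37B (r = 0.966), WDR53 (r = 0.960), INTS7 (r = 0.953), ENST00000448494 (r = 0.948) and BRD8 (r = 0.947). All 5 were well above background on 12 arrays. Their mean log2 differences with Empa were 0.26, 0.26, 0.32, 0.70 and 0.45, and their likeness to DHRS2 fixes the direction. The correlations rest on 12 arrays that share 4 slides and are highest values out of 15717, and are given as a description.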

How the data were processed

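The members and gene lists were chosen with earlier results of these data known. The authors deposited signal intensities read by Agilent Feature Extraction 9.5.3.1, background-subtracted and detrended and not normalized between arrays, and a table of log2 values of the same arrays described as quantile-normalized, whose scale and centering are otherwise not given in the sources used here and differ between slides. Control spots (1377 of 44495) and outlier spots were left out and spots of a probe were averaged. Signals were scaled to the 75th percentile of the array, floored at 1 unit and converted to log2. From 11.5% to 16.2% of spots were at or below 0, so log2 differences of dim probes depend on that floor. The 75th percentile was between 298 and 765 units and between 52.7% and 63.1% of probes were well above background, as the software marks it. The number of arrays limits the precision. limma 3.58.1 (R 4.3.3) was fitted to 15717 genes, 1 probe each, with slide as a block and 1 effect per treatment (6 residual degrees of freedom), Benjamini-Hochberg adjustment and a threshold of 0.05. Arrays of the same slide deviated together from their group means, with r between 0.592 and 0.906. The slides of a label differed widely already in their controls, so these values cannot show that replicate numbers pair the arrays of a line. Members, the genes of the lists past the threshold (up to 5 per list and treatment), ALDH1A1, ALDH1A2, ALDH1A3, H6PD, NR3C1, NR3C2 and DHRS4, and the 5 genes most like DHRS2 were named. Promoter stretches are from RefSeq (GRCh38.p14). Other scalings, filters, a fit without the block, left-out arrays and slides, and the methods' t-test were tried. The normexp setting used an offset of 50 units. Python 3.11.15 and matplotlib 3.10.9 were used for the figures.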

Additional observations from a re-analysis of the deposited data

How the results depend on the processing

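The number of genes called with IL-1β, 1955, was 8 with no replicate block, 864 with the block and an effect per line, 47 on the arrays labelled HK-2 alone, and 0 on those labelled RPTEC/TERT1 alone, on the arrays of either replicate number alone and by the methods' t-test in either line, and it ranged from 445 to 2963 when 1 array or slide was left out. The members called with IL-1β, 2 of 5, became 0 with no replicate block (adjusted p = 1.00 for DHRS3 and 0.760 for HSD11B2), 1 with normexp, 0 of 2 tested when a probe had to be above background on all 12 arrays, and 0 in single lines, in single replicate numbers and by the methods' t-test, and ranged from 1 to 3 when 1 array or slide was left out. In the authors' table the 2 called were DHRS7 and HSD11B2. The count of genes called with Empa was 0 under the settings with no replicate block, with an effect per line, with normexp, in the authors' table, with a floor of 5 units, with no filter, with the filter on all 12 arrays, on RPTEC/TERT1 arrays alone, in either replicate number and by the t-test, was 3 on HK-2 arrays alone, and ranged from 0 to 1 with 1 array or slide left out. DHRS2, which was chosen for its rise with Empa, was among the genes tested under these settings, except with the filter on all 12 arrays. The Empa difference of DHRS2 was 0.89 with normexp and 0.94 in the authors' table and between 2.50 and 2.99 with 1 array or slide left out.

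Values near 0 changed sign. HSD11B2 with Empa (-0.04) was 0.037 on RPTEC/TERT1 arrays alone, 0.00084 in replicate number 2 alone and between -0.28 and 0.20 with 1 array or slide left out. NR3C1 with IL-1β was -0.016 with normexp, -0.082 in the authors' table, -0.18 on RPTEC/TERT1 arrays alone, -0.055 in replicate number 1 alone and between -0.10 and 0.10 with 1 array or slide left out, over which NR3C2 ranged from -0.070 to 0.74. DHRS4 on RPTEC/TERT1 arrays alone was 0.038 with IL-1β and 0.13 with Empa, and with Empa it was 0.025 in replicate number 2 alone and between -0.38 and 0.022 with 1 array or slide left out. For each of these changes the cause was not tested. Signals near background limit DHRS2, DHRS3, DHRS9, HSD11B1 and HSD11B2 on some slides.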

Other observations

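LRAT, which stores retinol as its ester, stood apart from its list with Empa (mean log2 difference 2.13) and was looked at after its values were seen. It was in the fit only through the HK-2 Empa arrays, where it was high, and the mean rests on 1 array. On HK-2 slide 1 the signal was 99.6 units with Empa, against 0.39 in control and below 0 with IL-1β, a level at least 13.5-fold higher. On RPTEC/TERT1 slide 1 it was 56.2 units in control, 41.2 with IL-1β and 51.5 with Empa, on HK-2 slide 2 it was 18.8, 37.9 and 52.7 units, and on RPTEC/TERT1 slide 2 no value exceeded 1.67 units.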
